A study of Rattus norvegicus with 24 samples.

Results

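The miR-34 and miR-449 family was followed in small RNA libraries from 2 stress-related nuclei of the rat brain, the paraventricular nucleus of the hypothalamus (PVN) and the central nucleus of the amygdala (CEA). Its members were the 7 rows of the count table named rno-miR-34a-5p, rno-miR-34a-3p, rno-miR-34b-5p, rno-miR-34b-3p, rno-miR-34c-5p, rno-miR-34c-3p and rno-miR-449a-5p, out of 1098 miRNAs in all. The only further row of these families, rno-miR-449c-5p, had at most 2 reads in any library and is given as a neighbour. The rats were male Sprague–Dawley animals of 7 weeks in 4 groups, with 3 libraries for each nucleus and group and 24 libraries in all. The normal control (NC) had no surgery. Hepatectomy (HT) removed about 20% of the left liver lobe under isoflurane. HT+EA added electroacupuncture, which is electrical stimulation through needles at the ST 36 and SP 6 acupoints at 2/15 Hz for 30 min, before and after the operation. HT+SEA was the sham, with needles at those points and no current. All animals were habituated to restraint, and NC and HT rats were restrained for as long as the needled groups. The brains were collected 24 h later than the final session. The labels give nucleus, treatment and a replicate number, and what a shared number stands for is not stated, so the p-values measure the spread between these libraries. Each library is bulk tissue, in which fewer cells of a type and less of a miRNA per cell cannot be told apart.

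A mature miRNA pairs with its targets mainly through the seed, bases 2 to 8 from its 5′ end, and each hairpin can give a 5p and a 3p strand. The miR-34b, miR-34c and miR-449 miRNAs are known for multiciliated cells, where they act in the making of motile cilia, and such cells line the brain ventricles, one of which the PVN borders. miR-34a is known as a target of p53 with a broader distribution that includes neurons. The mature sequences are printed in RefSeq's version with the seed in capitals, because they show which members could act on shared targets and which are close enough to be confused in read counting.
rno-miR-34a-5p: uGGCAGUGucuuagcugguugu
rno-miR-34b-5p: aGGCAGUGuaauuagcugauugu
rno-miR-34c-5p: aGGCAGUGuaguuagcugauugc
rno-miR-449a-5p: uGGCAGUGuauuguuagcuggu
rno-miR-34b-3p: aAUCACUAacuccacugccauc
rno-miR-34c-3p: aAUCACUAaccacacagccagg
rno-miR-34a-3p: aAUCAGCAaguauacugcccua

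The 4 members from the 5p arm carried 1 seed, GGCAGUG, which miR-449c-5p carries too. The 3p strands of miR-34b and miR-34c shared a second seed, AUCACUA, and miR-34a-3p had a seed of its own, AUCAGCA. miR-34b-5p and miR-34c-5p differed at 2 of 23 bases, A11G and U23C, with positions counted from 1 at the 5′ end and the miR-34b base first. Their 3p strands differed at 5 of 22 bases, and miR-34a-5p and miR-449a-5p at 7 of 22. The counts of no other row came within 2% of those of a member in every library. How reads that match several miRNAs were assigned is not given in the sources used here, so the split of reads between miR-34b-5p and miR-34c-5p is uncertain.

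In RefSeq's GRCr8 assembly, Mir34a lies at chr5:165815952-165816053 on the plus strand, within the span of the lncRNA LOC103692514. Mir449a lies at chr2:46403910-46404000 on the plus strand, within LOC134485839, an lncRNA whose span also holds Mir449c, 1436 bases away. Mir34b (chr8:60306609-60306692) and Mir34c (chr8:60306091-60306167) lie on the minus strand with 441 bases between them, and the Mir34c hairpin is inside the span of the protein-coding gene Hoatz. The files' own coordinates were not used. Both hairpins of this pair are printed from 5′ to 3′ with their 2 mature strands in capitals, because the strands kept from them differed in the counts.
Mir34b: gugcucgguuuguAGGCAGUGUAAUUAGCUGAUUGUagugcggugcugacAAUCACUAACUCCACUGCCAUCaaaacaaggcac
Mir34c: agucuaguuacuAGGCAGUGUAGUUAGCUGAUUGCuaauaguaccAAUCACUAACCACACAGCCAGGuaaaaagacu

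PVN libraries held 6584345 to 14828269 counts and CEA libraries 9463321 to 14913564, and levels are given as counts per 1000000 miRNA counts of the library (CPM). CEA HT replicate 1 stood apart from the other libraries of its nucleus. Its median absolute difference from the nucleus median was 0.396 on the log2 scale over miRNAs with at least 10 CPM, against 0.0752 to 0.199 for the other CEA libraries and 0.0669 to 0.195 in the PVN. The hypothalamus list (miR-7a-5p and miR-7b), a check of the dissection, summed to between 134819 and 170491 CPM in the PVN and between 24805 and 54279 CPM in the CEA, so the 2 nuclei did not overlap. The table holds miRNAs only, so no protein marker of ciliated cells could be read, and the name of the family is background here. The nearest check was the choroid plexus list, an epithelium of the ventricles, which summed to 555 to 738 CPM in the PVN and 381 to 901 CPM in the CEA.

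miR-34c-5p made up most of the family's reads in the PVN, and all 4 miR-34b/c strands were about 4-fold higher in the PVN than in the CEA. miR-34c-5p ranged from 2251 to 3895 CPM in the 12 PVN libraries, with a median of 2708, and from 187 to 1113 CPM in the 12 CEA libraries, with a median of 647. Its lowest PVN library was above its highest CEA library. By mean level it ranked 47 of 1098 miRNAs in the PVN and 104 in the CEA. miR-34b-3p lay between 69.1 and 115 CPM in the PVN (median 81.8) and between 4.94 and 37.9 CPM in the CEA (median 18.4), again without overlap. miR-34c-3p lay between 30.8 and 67.4 CPM in the PVN and between 2.55 and 16.2 CPM in the CEA, also without overlap. miR-34b-5p, at 12.4 to 27.4 CPM against 0.577 to 13.4 CPM, overlapped in its extremes, since CEA NC replicate 2 was above the lowest PVN library.

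**Figure D1:**
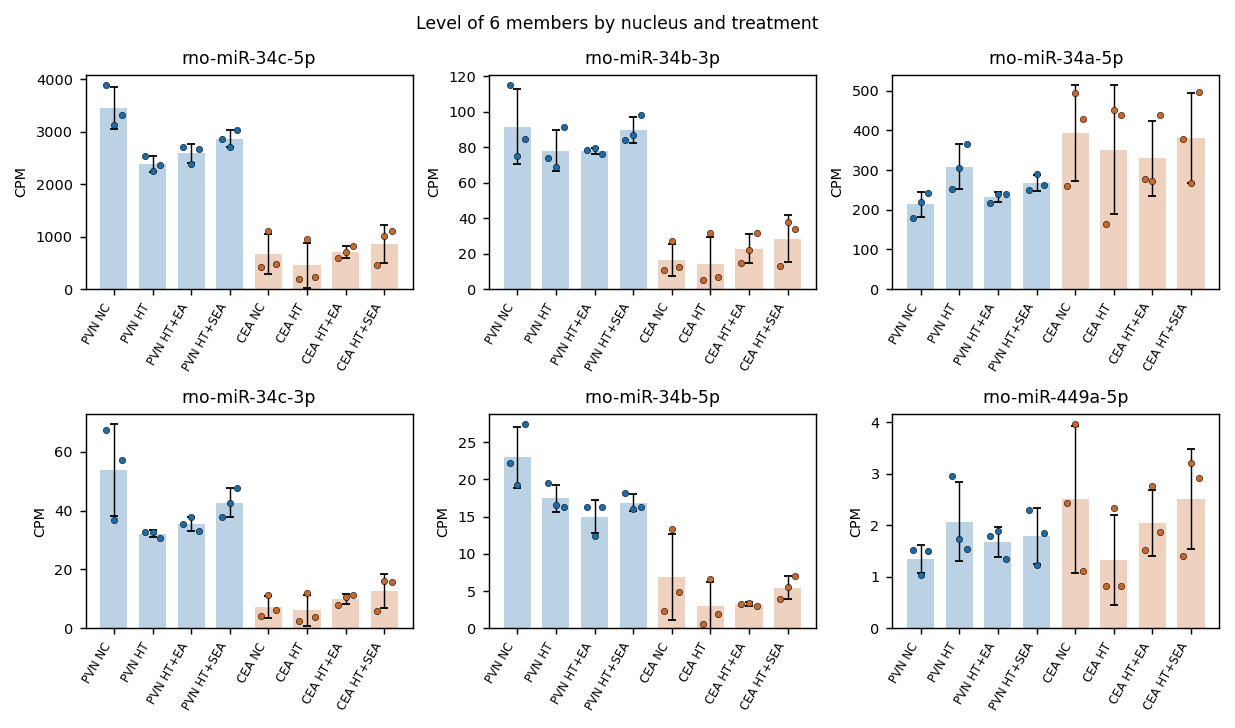
CPM (vertical axes, linear from 0) of 6 members in 8 groups of 3 libraries. Points are libraries in the order of their replicate number, bars are means and error bars are 1 SD, cut off at 0. miR-34c-5p lies between 2251 and 3895 CPM in the PVN (blue) and between 187 and 1113 CPM in the CEA (orange), while miR-34a-5p and miR-449a-5p overlap between the nuclei.

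With edgeR's quasi-likelihood test on the 24 libraries together, with a term for treatment, 5 of the 7 members differed between the nuclei at a Benjamini-Hochberg adjusted p under 0.05, 4 higher and 1 lower in the PVN. Of the 1098 miRNAs tested, 20.2% were higher and 19.8% were lower. The log2 fold change of the PVN over the CEA was 2.06 (SE 0.24, adjusted p = 2.64e-07) for miR-34c-5p, 2.16 (SE 0.24, adjusted p = 1.18e-07) for miR-34c-3p, 2.05 (SE 0.26, adjusted p = 1.40e-06) for miR-34b-3p and 1.98 (SE 0.26, adjusted p = 2.02e-06) for miR-34b-5p. miR-34a-5p went the other way, with a log2 fold change of -0.56 (SE 0.15, adjusted p = 0.00388). It ranged from 178 to 366 CPM in the PVN and from 164 to 496 CPM in the CEA, so the nuclei overlapped, and its lowest library of all was CEA HT replicate 1, the library that stood apart. miR-449a-5p, from the hairpin family that shares the seed, had 10 to 30 reads in a PVN library and 10 to 54 in a CEA library. Its log2 fold change was -0.30 (SE 0.22, adjusted p = 0.304), with a 95% interval from -0.74 to 0.13. miR-34a-3p had 0 to 4 reads in the PVN and 0 to 11 in the CEA, where a count of 0 allows up to 3 reads, and its difference did not pass the test (adjusted p = 0.104). Between the nuclei, 3 of 7 members did not overlap, against 11.6% of all miRNAs. The fit took the 24 libraries as independent. With the replicate number within each treatment as a block, the same 5 members passed the adjusted threshold, against 38.4% of all miRNAs.

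The difference in miR-34b/c between the nuclei was seen in each treatment group. The summed counts of the 4 miR-34b/c strands were 5.19-fold higher in the PVN than in the CEA in NC, 5.27-fold in HT, 3.67-fold in HT+EA and 3.33-fold in HT+SEA, and in none of the 4 groups did the nuclei overlap. For miR-34a-5p, the CEA mean was 1.85-fold higher in NC, 1.14-fold in HT, 1.42-fold in HT+EA and 1.42-fold in HT+SEA, with no overlap in NC and HT+EA and overlap in HT and HT+SEA. Lists of cell type markers were compared between the nuclei too. All 5 of the miR-200 family were higher in the PVN at the adjusted threshold, with a median log2 fold change of 1.40 against 0.03 for all miRNAs, while the choroid plexus list split, with 1 of 3 higher and 1 lower. All 3 of the neuron list were lower in the PVN, with a median of -1.10, and all 3 of the oligodendrocyte list, with a median of -1.06. The part of these cell types in the family's difference was not tested.

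The mix of the family differed between the nuclei in the same way. miR-34c-5p took 82.4% to 91.0% of the reads of the 7 members in PVN libraries, with a median of 87.8%, and 33.3% to 75.5% in CEA libraries, with a median of 63.9%. miR-34a-5p took 4.16% to 12.7% in the PVN and 19.9% to 64.8% in the CEA. The ratio of miR-34c-5p to miR-34a-5p reads was 6.46 to 21.9 in the PVN libraries and 0.514 to 3.8 in the CEA libraries. In CEA HT replicate 3, the family's reads were mostly miR-34a-5p.

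**Figure D2:**
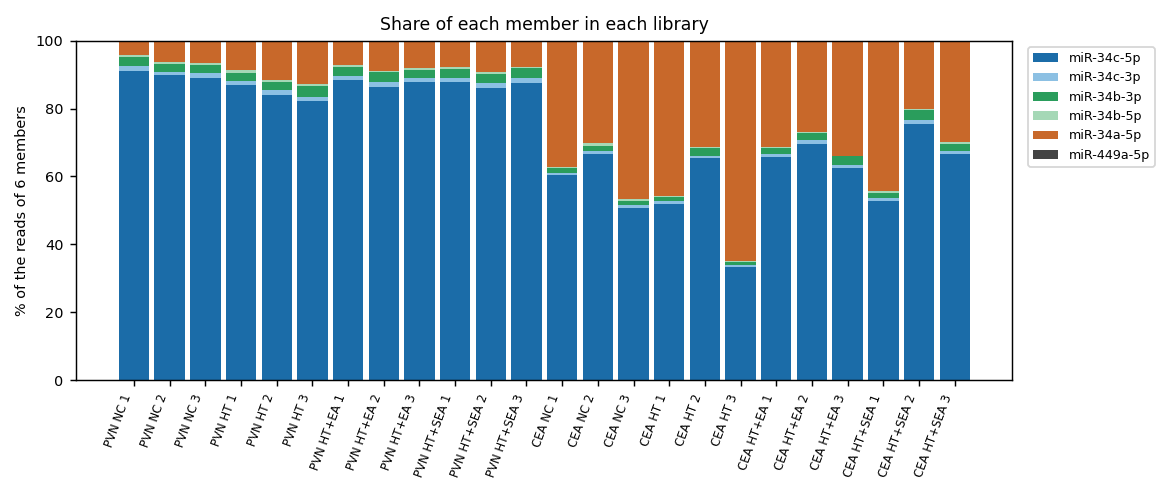
Share (%, vertical axis) of 6 members in the reads of the family, 1 bar for each of the 24 libraries, with miR-34a-3p (at most 11 reads) left out. miR-34c-5p (dark blue) takes 82.4% to 91.0% in the PVN and 33.3% to 75.5% in the CEA, where miR-34a-5p (orange) takes 19.9% to 64.8%.

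The hairpins printed above differed in which strand had more of the reads assigned to them. For miR-34c, the 5p strand outnumbered the 3p strand by 57.8 to 85.1 times in PVN libraries and by 60 to 98.8 times in CEA libraries. For the neighbouring miR-34b the order was the opposite, with the 3p strand at 75.5% to 86.4% of its reads in the PVN and 66.8% to 91.5% in the CEA. That order rests on the uncertain split of 5p reads: miR-34b-5p would equal miR-34b-3p if 1.72% to 3.18% of the miR-34c-5p reads in PVN libraries, and 1.23% to 3.53% in CEA libraries, had come from miR-34b. miR-34a-3p was at most 0.171% of miR-34a reads in the PVN and 0.247% in the CEA. These strand shares had close medians in both nuclei, at 82.6% and 82.3% for miR-34b-3p and at 1.37% and 1.34% for miR-34c-3p, although the hairpins' levels differed about 4-fold. miR-34c-5p reads outnumbered miR-34b-3p reads by 33.9 times in the PVN and by 34 times in the CEA (medians of 12 libraries). Ratios between different miRNAs are ratios of reads, and the efficiency with which each sequence enters a library was not tested.

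In the level of miR-34b/c, CEA libraries differed from each other more than PVN libraries did. The summed miR-34b/c counts spanned 6.01-fold over the CEA libraries and 1.73-fold over the PVN libraries. The coefficient of variation of miR-34c-5p was 49.0% in the CEA, where 5 of 352 miRNAs with at least 10 CPM varied more, and 16.5% in the PVN, where 96 of 373 did. Within the 12 CEA libraries, the log2 level of the summed miR-34b/c strands had a Pearson r of 0.88 (Spearman's rho 0.83) with miR-449a-5p and of 0.50 (rho 0.59) with miR-34a-5p. Within the 12 PVN libraries, the same r was -0.26 (rho -0.35) for miR-449a-5p and -0.71 (rho -0.53) for miR-34a-5p. miR-34b-3p and miR-34c-5p, from neighbouring hairpins, had an r of 0.98 in the CEA and 0.66 in the PVN (rho 0.93 and 0.46). Over the 6 pairs of miR-34b/c strands, r was 0.79 to 0.98 in the CEA (rho 0.71 to 0.97). In the PVN it was 0.25 to 0.86 (rho -0.03 to 0.80), lowest between the strands of miR-34b. These are descriptions over libraries that share a total to which all miRNAs are scaled. They pool the treatment groups of a nucleus, so differences between groups enter them. Replicate 1 was the lowest of 3 for miR-34c-5p in all 4 CEA groups, at 428 CPM in NC, 187 in HT, 584 in HT+EA and 451 in HT+SEA.

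**Figure D3:**
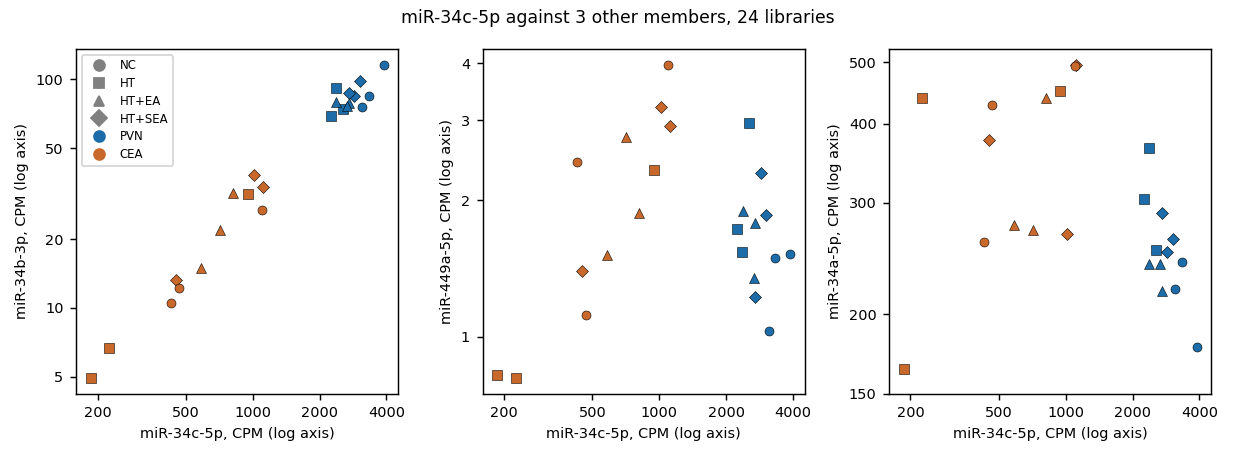
CPM of miR-34c-5p (horizontal log axes) against miR-34b-3p, miR-449a-5p and miR-34a-5p (vertical log axes), 1 point for each of 24 libraries, blue for the PVN and orange for the CEA. With miR-34c-5p, miR-34b-3p had a Pearson r of 0.66 in the PVN and 0.98 in the CEA, miR-449a-5p of -0.26 and 0.88, and miR-34a-5p of -0.72 and 0.49. Each r pools the treatment groups of a nucleus.

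Among lists of cell type markers, the choroid plexus sum had a Spearman's rho with the summed miR-34b/c strands of -0.86 over the PVN libraries and of 0.65 over the CEA libraries. The miR-200 family, an epithelial family, had a rho of 0.48 and 0.70. The neuron list had -0.76 and 0.03, the oligodendrocyte list -0.43 and 0.60, the red cell list 0.55 and 0.47 and the myeloid list 0.54 and 0.23. The hypothalamus list had 0.33 and -0.04, the endothelial list 0.17 and 0.07 and the other p53-induced miRNAs -0.15 and 0.01. These values too pool the treatment groups of a nucleus, so differences between groups enter them. Among the 359 other known miRNAs with a mean of at least 10 CPM, the 5 most alike in rank over the 24 libraries to the summed miR-34b/c strands were miR-375-3p (rho 0.949), miR-217-5p (0.898), miR-3099 (0.878), miR-1224 (0.877) and miR-28-5p (0.862). Such a rho takes in the difference between the nuclei, and within the nuclei miR-375-3p had a rho of 0.72 in the PVN and 0.87 in the CEA. For miR-34a-5p the 5 were miR-455-5p (0.919), miR-340-5p (0.898), miR-3065-5p and miR-338-3p (0.845 each, with identical counts) and miR-186-5p (0.841). For miR-449a-5p no rho passed 0.470, the value of miR-374-5p, followed by miR-191a-5p (0.435), miR-3065-3p (0.434), miR-423-3p (0.433) and miR-338-5p (0.427).

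The first treatment question was what hepatectomy did. In the PVN, both miR-34c strands were lower and miR-34a-5p was higher in HT than in NC. miR-34c-5p was at 3895, 3119 and 3326 CPM in the NC libraries and at 2545, 2251 and 2364 CPM in the HT libraries, with no overlap. Its log2 fold change was -0.56 (SE 0.13), which is 1.48-fold lower, with an edgeR adjusted p = 0.0100. miR-34c-3p was at 67.4, 36.6 and 57.2 CPM in NC and at 32.8, 32.9 and 30.8 CPM in HT. The groups did not overlap, although NC replicate 2 was close to HT, and the log2 fold change was -0.77 (SE 0.20, edgeR adjusted p = 0.0169). miR-34a-5p was at 178, 219 and 242 CPM in NC and at 253, 305 and 366 CPM in HT. All HT libraries were above all NC libraries, with a log2 fold change of 0.49 (SE 0.16, edgeR adjusted p = 0.119, unadjusted p = 0.00303).

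At the study's threshold of an unadjusted p under 0.05, these 3 of 7 members passed, 2 lower and 1 higher, against 5.88% lower and 4.16% higher of the 986 miRNAs tested, and 2 passed at the adjusted threshold, against 0.811%. Groups did not overlap for 4 of 7 members, against 12.8% of all miRNAs. The fourth was miR-449a-5p, with the nearest libraries almost level, at 1.52 CPM in NC and 1.54 CPM in HT. miR-34b-5p, at 17.5 ± 1.81 CPM in HT and 23.0 ± 4.12 in NC (SD, n = 3 each), had a log2 fold change of -0.42 (SE 0.22, edgeR unadjusted p = 0.0524). miR-34b-3p had -0.27 (SE 0.18, edgeR unadjusted p = 0.145), and miR-449a-5p, at 10 to 26 reads, had 0.61 (SE 0.47, edgeR unadjusted p = 0.200). The miR-34c-5p to miR-34a-5p ratio of reads was 16.6 ± 4.58 in NC and 7.97 ± 1.87 in HT (SD, n = 3 each), without overlap. An exact two-sided permutation test of its log2 gave p = 0.1, the smallest p that 3 libraries against 3 allow, and 0.32 after adjustment over 8 contrasts.

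The fit for this contrast took its estimate of the spread largely from all miRNAs (478 prior and 4 residual degrees of freedom), and with edgeR's own filter on low counts the adjusted p of miR-34c-5p was 0.201 and that of miR-34c-3p 0.263. DESeq2 gave adjusted p-values of 0.0466 and 0.139. With edgeR, both were 0.0574 without HT replicate 2, and without NC replicate 1 or NC replicate 3 the adjusted p of miR-34c-3p was 0.174 and 0.0832. Without NC replicate 1 the unadjusted edgeR p of miR-34a-5p was 0.050.

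Other miRNAs moved with the same groups in the PVN. Of the miR-200 family, 3 of 5 members were lower in HT than in NC at the unadjusted threshold, with a median log2 fold change of -1.68 against -0.01 for all miRNAs, among them miR-429 at -1.95 (SE 0.49, edgeR adjusted p = 0.0172). Their sum was 21.6, 24.3 and 74.8 CPM in NC libraries and 10.5, 13.5 and 18.1 CPM in HT libraries, in rising order. The neuron list summed to between 8977 and 11349 CPM in NC and between 13914 and 15592 CPM in HT, with 2 of 3 members higher, miR-128-3p and miR-138-5p. The choroid plexus list summed to between 555 and 631 CPM in NC and between 661 and 738 CPM in HT, with 1 of 3 higher, miR-204-3p. Of the myeloid list, 1 of 3 was lower, miR-223-3p, known from granulocytes and monocytes, at 22.3, 89.0 and 81.2 CPM in NC and at 1.02, 1.40 and 1.54 CPM in HT. Its log2 fold change of -5.62 (SE 0.72, edgeR unadjusted p = 0.000686, adjusted p = 0.0615) was larger in size than that of any member. The other 2 myeloid miRNAs, miR-142-3p and miR-142-5p, had -0.16 and -0.01 and did not pass. Of the red cell list, 1 of 2 was lower, miR-451-5p, at -0.54 (SE 0.17), and of the oligodendrocyte list 1 of 3 was higher, miR-338-3p, at 0.57 (SE 0.18). None of the 2 endothelial or 2 hypothalamus miRNAs passed. The part of these lists in the result of the family was not tested. Of the other p53-induced miRNAs, a list of 10 of which 9 were in the table, 1 was higher and 1 lower, and their median log2 fold change was -0.06.

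The second question was what electroacupuncture changed after hepatectomy. In the PVN, miR-34a-5p was lower in HT+EA than in HT, and no other member passed. It was at 218, 240.2 and 240.4 CPM in HT+EA and at 253, 305 and 366 CPM in HT, with no overlap. The log2 fold change was -0.36 (SE 0.13, edgeR adjusted p = 0.162, unadjusted p = 0.00540). That is 1 of 7 members, against 10.8% of the 985 miRNAs tested and 5.18% that were lower. miR-34c-5p was at 2708, 2381 and 2665 CPM in HT+EA, which overlapped HT, with a log2 fold change of 0.14 (SE 0.11, edgeR unadjusted p = 0.186). miR-34c-3p had 0.17 (SE 0.16), miR-34b-3p 0.03 (SE 0.14), miR-34b-5p -0.19 (SE 0.19) and miR-449a-5p -0.28 (SE 0.38), none of which passed. The groups of miR-34a-5p and miR-34c-3p did not overlap, against 15.7% of all miRNAs. For miR-34c-3p the nearest libraries were almost level, at 32.91 CPM in HT+EA and 32.88 CPM in HT. Same-numbered libraries deviated together between these groups, and with the number as a block the call was again miR-34a-5p alone, at -0.35 (edgeR unadjusted p = 0.00701).

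The sham answered what the needles did without current. In the PVN, both miR-34c strands were higher in HT+SEA than in HT, and miR-34a-5p did not pass. miR-34c-5p was at 2864, 2707 and 3030 CPM in HT+SEA, all above HT, with a log2 fold change of 0.27 (SE 0.11, edgeR unadjusted p = 0.0115, adjusted p = 0.311). miR-34c-3p was at 37.8, 42.7 and 47.6 CPM, also all above HT, with 0.42 (SE 0.16, edgeR unadjusted p = 0.00916, adjusted p = 0.277). These were 2 of 7 members, against 8.10% of the 1000 miRNAs tested and 3.40% that were higher, and the same 2 did not overlap, against 10.3%. Leaving out HT+SEA replicate 3 ended both calls (edgeR unadjusted p = 0.0566 for miR-34c-5p and 0.0671 for miR-34c-3p), HT replicate 2 ended that of miR-34c-5p (0.126) and HT+SEA replicate 2 that of miR-34c-3p (0.0599). miR-34a-5p, at 251, 290 and 263 CPM, had a log2 fold change of -0.18 (SE 0.13, edgeR unadjusted p = 0.154).

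The contrasts of HT with NC, HT+EA and HT+SEA share the 3 HT libraries, so a low or high value in these appears in all of them. In the PVN the order of the group means of miR-34c-5p was NC (3446 CPM), HT+SEA (2867), HT+EA (2585) and HT (2387), and the libraries of HT+SEA and HT+EA, and of HT+EA and HT, overlapped. For miR-34a-5p the order was HT (308 CPM), HT+SEA (268), HT+EA (233) and NC (213), and in this order HT and HT+SEA overlapped, as did HT+EA and NC. Of the miR-200 family, 2 of 5 members were higher in HT+EA than in HT and 3 of 5 were higher in HT+SEA, where miR-200a-3p had 1.34 (SE 0.22, edgeR adjusted p = 1.30e-06). The neuron list had 2 of 3 members lower in both contrasts. In HT+EA against HT, all 3 of the oligodendrocyte list passed the unadjusted threshold, with miR-219a-5p at -0.94 (SE 0.15, edgeR adjusted p = 1.24e-05) and miR-338-3p at -0.43 (SE 0.15) lower and miR-219a-2-3p at 0.29 (SE 0.11) higher. In the same contrast miR-223-3p was higher, at 10.3, 8.98 and 11.9 CPM in HT+EA against the HT values above (edgeR adjusted p = 7.97e-13), and the red cell miRNA miR-144-3p lower, at -0.98 (SE 0.21, edgeR adjusted p = 0.00459). In HT+SEA against HT, 1 of 3 of the oligodendrocyte list was lower, miR-338-3p at -0.38 (SE 0.13), and none of the myeloid or red cell lists passed. miR-338-3p was also among the 5 miRNAs most alike in rank to miR-34a-5p. The part of these lists was not tested.

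Electroacupuncture and the sham were also compared with each other. In the PVN, miR-34a-5p, miR-34b-3p and miR-34c-3p were lower in HT+EA than in HT+SEA at the unadjusted threshold, 3 of 7 against 6.94% of the 994 miRNAs tested and 4.43% that were lower. The log2 fold changes were -0.21 (SE 0.09, edgeR adjusted p = 0.488), -0.21 (SE 0.11, edgeR adjusted p = 0.655) and -0.28 (SE 0.12, edgeR adjusted p = 0.466). These 3 members did not overlap, against 11.3% of all miRNAs. With all 12 PVN libraries in the fit none passed, and without HT+EA replicate 1 or HT+SEA replicate 2 none passed either. Without HT+EA replicate 3, or without HT+SEA replicate 3, 1 passed, against 7.86% and 8.54% of all miRNAs.

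In the CEA the libraries of a group were far apart. miR-34a-3p, at 0 to 11 reads a library, passed in none of the 8 treatment contrasts of either nucleus, with standard errors of 0.84 to 1.46. It did pass in CEA HT against NC without NC replicate 2 (edgeR adjusted p = 0.992), which left 0 reads in both NC libraries against 1, 11 and 2 in HT, so no fold is given. miR-34c-5p was at 428, 1100 and 468 CPM in NC, at 187, 947 and 226 in HT, at 584, 711 and 815 in HT+EA and at 451, 1017 and 1113 in HT+SEA. The groups overlapped, and HT replicate 2 was far above the other HT libraries. miR-34a-5p was at 260, 494 and 428 CPM in NC, at 164, 450.4 and 439.8 in HT, at 277, 272 and 439.3 in HT+EA and at 377, 268 and 496 in HT+SEA, so all 4 groups overlapped.

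For HT against NC in the CEA, 1 of 7 members passed, miR-449a-5p, against 3.01% of the 996 miRNAs tested and 1.41% that were lower. It had 23, 54 and 12 reads in the NC libraries and 10, 23 and 11 in the HT libraries. Its groups overlapped, at 1.12 to 3.97 CPM in NC and 0.813 to 2.33 CPM in HT, and the log2 fold change was -0.90 (SE 0.44, edgeR unadjusted p = 0.0418, adjusted p = 0.931). miR-34c-5p had -0.52 (SE 0.83), miR-34c-3p -0.23 (SE 0.40), miR-34b-3p -0.19 (SE 0.89), miR-34b-5p -1.19 (SE 1.10) and miR-34a-5p -0.14 (SE 0.23). Same-numbered libraries deviated together between these groups. With the number as a block 4 members passed, all lower in HT, against 2.41% of all miRNAs that were lower in that fit, with log2 fold changes of -0.75 (SE 0.15, edgeR adjusted p = 0.000268) for miR-34c-5p, -1.29 (SE 0.31, edgeR adjusted p = 0.0109) for miR-34b-5p, -0.47 (SE 0.22, edgeR adjusted p = 0.999) for miR-34b-3p and -0.85 (SE 0.42, edgeR adjusted p = 0.999) for miR-449a-5p. That fit had 2 residual degrees of freedom and, as the median over miRNAs, infinite prior degrees of freedom. Its spread was mainly that of all miRNAs. Without HT replicate 2, 5 passed, against 4.49% of 981 miRNAs, and without HT replicate 1, the library that stood apart, none did. No member passed without HT replicate 3 or without NC replicate 1, either.

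For HT+EA against HT in the CEA, edgeR called none of the 7 members at the unadjusted threshold and DESeq2 none, against 4.18% of the 1004 miRNAs tested. The log2 fold changes of miR-34c-5p, miR-34c-3p and miR-34b-3p were 0.54 (SE 0.69), 0.61 (SE 0.46) and 0.59 (SE 0.80), and that of miR-34a-5p was -0.20 (SE 0.34). For HT+SEA against HT, edgeR again called none, against 4.40% of 999, while DESeq2 called miR-34c-3p (unadjusted p = 0.0378). The values were 0.88 (SE 0.82) for miR-34c-5p, 1.0 (SE 0.59) for miR-34c-3p, 0.95 (SE 0.91) for miR-34b-3p, 0.84 (SE 0.51) for miR-34b-5p and 0.87 (SE 0.46) for miR-449a-5p. Without CEA HT replicate 2 the 4 miR-34b/c strands and miR-449a-5p passed in both contrasts, 5 of 7 in each, all higher than in HT, against 2.62% of 994 miRNAs that were higher in HT+EA and 2.03% of 984 in HT+SEA without that library. In HT+EA against HT, miR-34a-5p passed without HT replicate 1 (log2 fold change -0.49) or HT+EA replicate 3 (-0.44), and miR-34c-3p without HT+EA replicate 1 (0.74). In HT+SEA against HT, 3 members passed without HT+SEA replicate 1, against 4.42% of 973 miRNAs. For HT+EA against HT+SEA, 1 of 7 passed, miR-34b-5p, against 2.44% of 1026 and 1.46% that were lower. Its 44 to 48 reads in HT+EA and 56 to 89 in HT+SEA gave a log2 fold change of -0.79 (SE 0.31, edgeR adjusted p = 0.997), and its groups did not overlap, against 4.78% of all miRNAs. None passed without HT+SEA replicate 3. Without HT+SEA replicate 1, all 4 miR-34b/c strands did, against 2.69% of 1004 miRNAs, and miR-34a-5p joined miR-34b-5p without HT+EA replicate 3 or HT+SEA replicate 2.

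Some members of the marker lists passed in the CEA too, at the unadjusted threshold. Of all miRNAs, 4.40% passed in HT+SEA against HT, 4.18% in HT+EA against HT and 3.01% in HT against NC. The miR-200 family summed to 5.19, 6.99 and 3.55 CPM in HT and to 12.5, 19.0 and 12.8 CPM in HT+SEA, without overlap, and 2 of 5 members were higher, miR-200a-3p at 1.62 (SE 0.37) and miR-200b-3p at 1.96 (SE 0.45, edgeR adjusted p = 0.0106 for both). The choroid plexus list summed to 421, 459.95 and 397 CPM in HT and to 474, 901 and 460.01 CPM in HT+SEA, with the nearest libraries almost level, and 1 of 3 was higher, miR-204-5p at 0.43 (SE 0.20). Of the red cell list 1 of 2 was higher in HT+SEA, and no miRNA of the other lists passed. In HT+EA against HT, 1 of 5 of the miR-200 family and 1 of 3 of the myeloid list were higher, and 1 of 3 of the oligodendrocyte and of the neuron list were lower. In HT against NC, 1 of 5 of the miR-200 family, 1 of 3 of the oligodendrocyte list, 1 of 3 of the myeloid list and both red cell miRNAs were lower, with miR-223-3p at -2.98 (SE 0.54, edgeR adjusted p = 0.0161). The part of these lists in the family's values was not tested.

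**Figure D4:**
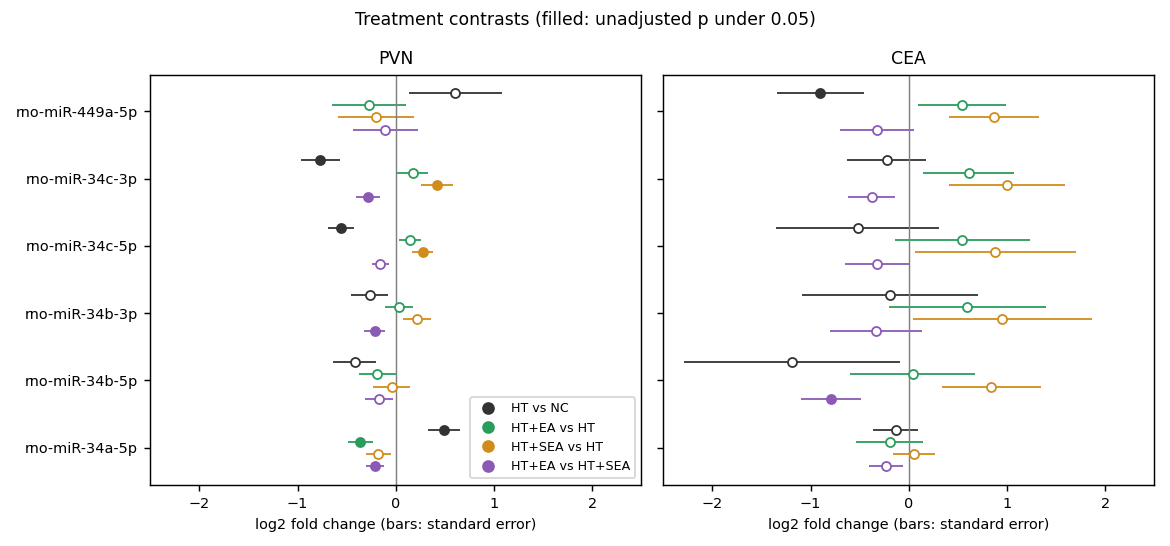
Log2 fold changes (horizontal axes) of 6 members in 4 treatment contrasts, PVN on the left and CEA on the right. Points are edgeR estimates, bars are 1 standard error and filled points passed an unadjusted p under 0.05. The standard error of miR-34c-5p for HT against NC is 0.13 in the PVN and 0.83 in the CEA.

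Whether the effect of a treatment differed between the nuclei was tested as an interaction. For HT against NC, edgeR called none of the 7 members at an adjusted p under 0.05, against 0.00% of 1064 miRNAs, and 1 passed unadjusted, against 3.38%, while DESeq2 called none at the adjusted threshold. That 1 was miR-449a-5p, with a difference of the PVN effect from the CEA effect of 1.43 (SE 0.65, edgeR unadjusted p = 0.0289, adjusted p = 1.0). For miR-34c-5p the difference was -0.12 (SE 0.81), a 95% interval from -1.71 to 1.48, and for miR-34a-5p 0.55 (SE 0.38), from -0.20 to 1.30. These intervals use a normal distribution, so they are too narrow where few degrees of freedom apply. For HT+EA against HT, edgeR called none of the 7 at the adjusted threshold, against 0.00% of 1051, and none unadjusted, against 1.71%, and DESeq2 none at the adjusted threshold, with -0.47 (SE 0.71) for miR-34c-5p and -0.24 (SE 0.41) for miR-34a-5p. With the replicate number as a block, none of the 7 passed the adjusted threshold in either interaction, against 0.00% of all miRNAs in each. Unadjusted, miR-34c-5p at -0.81 (SE 0.24, edgeR unadjusted p = 0.000637), miR-34b-3p at -0.94 (SE 0.30, edgeR unadjusted p = 0.00148) and miR-34c-3p at -0.70 (SE 0.32, edgeR unadjusted p = 0.0292) passed for HT+EA against HT, 3 of 7 against 1.62% of all miRNAs in that fit. For HT against NC, miR-34a-5p at 0.60 (SE 0.23, edgeR unadjusted p = 0.0102), miR-34b-5p at 0.78 (SE 0.37, edgeR unadjusted p = 0.0334) and miR-449a-5p at 1.33 (SE 0.65, edgeR unadjusted p = 0.0413) did, 3 of 7 against 4.89%. By the study's methods, brain samples came from different animals of a single batch, so a number shared by a PVN and a CEA library is not given as marking a single rat. Same-numbered PVN and CEA libraries deviated together in NC (correlations of 0.143 to 0.295), HT+EA (0.186 to 0.226) and HT+SEA (0.187 to 0.651) but not in HT (-0.108 to 0.0529), which enters both interactions. Without CEA HT replicate 2, 2 of 7 members passed the adjusted threshold in each of the 2 interactions, against 0.566% of 1061 miRNAs for HT against NC and 0.191% of 1048 for HT+EA against HT.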

How the data were processed

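Raw counts per miRNA for 24 small RNA libraries were deposited by the authors in a single table, made from total RNA with a NEBNext small RNA kit. The study's methods describe HISAT2 and featureCounts and a rat genome, while the submitters' processing notes list HISAT2 and featureCounts beside the human builds GRCh38 and hg38. How miRNA reads with several matches were counted is not given in the sources used here. A further 24 value columns hold counts scaled to the library total and were not used.

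Members, marker lists and tests were chosen with earlier results of these data known. All 7 members were named in every comparison, the marker lists by their counts with a few values, and the 5 miRNAs most alike in Spearman's rho among those with a mean of at least 10 CPM. CPM is the count divided by the library's summed miRNA counts, and Pearson correlations used the log2 of CPM after 0.5 was added to each count.

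Counts of all miRNAs with at least 1 count were fitted with edgeR 4.0.16 (TMM scaling, robust quasi-likelihood F test) in R 4.3.3 with limma 3.58.1, and p-values were adjusted over all miRNAs tested (Benjamini-Hochberg). Standard errors are the size of the log2 fold change over the square root of F. Contrasts within a nucleus used the 6 libraries compared and were called at an unadjusted p under 0.05, the study's threshold. The nucleus contrast used 24 libraries and interactions 12, both called at an adjusted p under 0.05. In 5 of the 8 contrasts within a nucleus the median prior degrees of freedom over miRNAs were infinite. For most miRNAs these p-values rest mainly on a pooled spread. The robust fit lets a miRNA of unusual spread keep more of its own. In CEA HT against NC, miR-34c-5p and both miR-34b strands had wide standard errors. Alternatives were DESeq2 1.42.0, its size factors, library totals, a filter on low counts, a fit that was not robust, the replicate number as a block, all 12 libraries of the nucleus, and leaving out each library. Scripts were tested on simulated counts. Tables and plots used Python 3.11.15, pandas 2.3.3, numpy 2.4.6, scipy 1.17.1 and matplotlib 3.10.9.

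Same-numbered libraries were taken as paired where every correlation of their deviations passed 0.1. This held for PVN HT+EA with HT (0.145 to 0.333) and CEA HT with NC (0.216 to 0.512), from the counts alone, and for no other contrast within a nucleus.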

Additional observations from a re-analysis of the deposited data

How the results depend on the processing

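None of the 18 values of members with an unadjusted p under 0.05 changed direction under any alternative. Of all 77 values, 4 changed sign under a planned setting, namely miR-34b-3p in PVN HT+EA against HT (0.03, lowest -0.01), miR-34a-3p in CEA HT+SEA against HT (-0.21, highest 0.08), and miR-34b-3p (-0.15, 0.13 with the replicate block) and miR-34c-5p (-0.12, 0.11 with the block) in the HT interaction. Leaving out 1 library changed the sign of 24, among them miR-34c-5p in CEA HT against NC (-1.51 to 0.05). The numbers of members called between the nuclei (5), in PVN HT against NC (3) and in PVN HT+EA against HT (1) stayed within 1.5 times under every alternative setting. With all 12 libraries of a nucleus in the fit, 0 members passed in PVN HT+EA against HT+SEA, in CEA HT against NC and in CEA HT+EA against HT+SEA. For CEA HT against NC, DESeq2 and the filter on low counts gave 0, the fit that was not robust 3 (against 3.82% of all miRNAs in that fit) and the replicate block 4 (3.92%). For CEA HT+EA against HT, library totals gave 1 (5.58%) and the replicate block 3 (3.49%), although the numbers did not pair those libraries. For CEA HT+SEA against HT, DESeq2 gave 1 (2.10%), library totals 2 (4.0%), the fit that was not robust 4 (4.70%) and the replicate block 4 (3.20%), of which miR-34b-3p, miR-34c-5p and miR-34c-3p passed the adjusted threshold (edgeR adjusted p = 0.00788, 0.0249 and 0.0454) in libraries the numbers did not pair either. The block moved no other count by over 1.5 times. The causes were not tested. Leaving out 1 library at a time gave 5 to 5 members between the nuclei, 3 to 4 for PVN HT against NC, 1 to 1 for PVN HT+EA against HT, 0 to 3 for PVN HT+SEA against HT and for PVN HT+EA against HT+SEA, 0 to 5 for CEA HT against NC, CEA HT+EA against HT and CEA HT+SEA against HT, 0 to 4 for CEA HT+EA against HT+SEA, and 0 to 2 for each interaction. In the same order, the shares of all miRNAs called in those fits were 37.8% to 39.8%, 7.53% to 11.1%, 7.66% to 13.5%, 4.10% to 9.13%, 5.83% to 8.54%, 1.44% to 6.13%, 4.05% to 6.94%, 3.04% to 5.59%, 1.68% to 3.47%, and at most 0.566% and 0.191%. Among miRNAs with at least 50 CPM, 3 of the 5 most like the summed miR-34b/c strands were again in the list. miR-449a-5p and miR-34a-3p had 0 to 54 reads a library, and the part of depth in their results was not tested.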

Other observations

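The remaining marker lists add to the account of the nuclei. Between the PVN and the CEA, both endothelial miRNAs were lower in the PVN, 1 of 3 myeloid miRNAs was lower and 1 of 2 red cell miRNAs was higher, at the adjusted threshold. Of the other p53-induced miRNAs, 2 of 9 were higher and 5 lower, with a median log2 fold change of -0.25 against 0.03 for all miRNAs.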
